A study of Rattus norvegicus with 6 samples.

Results

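The proximal tubule glucose, amino acid and anion carriers are 45 genes of the solute carrier (Slc) families and 1 scaffold among them. The 45 genes come from a fixed list of names, which was chosen with earlier results of these data known. A probe was found for 44 of the 45, and 43 were tested, out of 31582 genes or sequences tested on the arrays. The exceptions were Slc16a9, a carrier of the monocarboxylate family for which no probe was matched, and Slc36a2, a proton-coupled carrier of glycine and proline whose probe was not well above background on any array. The animals were male Sprague-Dawley (Crl:CD(SD)) rats bought at 5 weeks of age, and total RNA of their renal cortex was measured with 1 array per animal. The control group was 3 rats given corn oil, the vehicle, for 4 weeks. The BBMP group was 3 rats given 2,2-bis(bromomethyl)-1,3-propanediol, a brominated diol, for the same 4 weeks at a daily dose of 1000 mg/kg. The comparison asks which carriers differed in the cortex between treated and vehicle rats.

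The proximal tubule takes back most of the glucose, amino acids, bicarbonate, phosphate and organic anions that the glomerulus filters. Carriers in the brush border bring solutes into the cell, in most cases together with sodium or protons, and others on the basolateral side pass them to the blood, while the sodium pump keeps the gradient that drives uptake. Several amino acid exchangers work only as a pair of a light chain, which transports, and a heavy chain, which brings the pair to the membrane.

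Values are log2 processed signals relative to the 75th percentile of their own array, so that 0 is the level of that percentile, and a difference is BBMP minus control on that log2 scale. A gene is called higher or lower where limma's moderated test gave a Benjamini-Hochberg adjusted p under 0.05 over all 31582 genes or sequences, with n = 3 rats per group. Levels of different probes cannot be set against each other. The share of probes well above background was 67.2% to 68.6% on the control arrays and 70.5% to 72.7% on the BBMP arrays, with no overlap, and the 75th percentile of the signal was 943 to 950 on the control arrays and 1244 to 1259 on the BBMP arrays. All control arrays lay on 1 slide and in 1 scan and all BBMP arrays on another slide and scan, so slide, scan and treatment cannot be told apart in any value given here. Of the 10 listed proximal tubule markers, all were measured and 0 were called (limma; 3 had an unadjusted p under 0.05). Their summed linear signal was 926 to 973 in controls and 948 to 988 in BBMP rats, so the markers of the labelled tissue's main tubule were present and the sums overlapped. Of the 10 markers, 8 had a positive difference, the median was 0.24, and the groups did not overlap for 2, Anpep and Cyp4b1. Among markers of other cells, 2 of 5 podocyte, 1 of 6 endothelial, 1 of 5 leukocyte, 2 of 5 medulla and papilla, 2 of 3 adrenal and 2 of 6 tubule injury genes were called higher, where 10.2% of all genes or sequences were. Differences were negative for 3 of 5 podocyte, 3 of 6 endothelial and 3 of 5 leukocyte genes. They were also negative for 1 of 5 medulla and papilla, 1 of 3 adrenal and 2 of 6 tubule injury genes. The genes called lower were 1 of 3 for the distal convoluted and connecting tubule and 2 of 6 for collecting duct principal cells, against 0 of 4 for the thick ascending limb and 0 of 5 for intercalated cells, where 7.68% of all genes were called lower. Differences were positive for 1 of 3 distal convoluted and connecting tubule genes and 2 of 6 principal cell genes. Summed signals did not overlap for medulla and papilla (0.417 to 0.461 in controls, 0.584 to 0.666 in BBMP), adrenal (2.39 in controls, 3.02 to 3.16 in BBMP), principal cells (172 to 185 and 150.2 to 165) and intercalated cells (138 to 171 and 124 to 137). Their part in the carriers' differences was not tested. In tissue RNA, fewer cells of a type and less RNA per cell cannot be told apart.

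Of the 43 carriers, 5 were called higher in BBMP rats and 0 were called lower. They were Slc1a1, Slc25a10, Slc6a13, Slc17a1 and Slc16a10. The 5 were 11.6% of the carriers, while 17.9% of all genes or sequences were called, 10.2% higher and 7.68% lower. The carriers' share was also the smaller in every alternative setting with any call, except trend and robust moderation. It was 18.6% against 25.4% of all genes or sequences after normexp background correction, and 16.3% against 16.8% after quantile normalization. With trend and robust moderation, 27.9% of the carriers and 21.2% of all genes or sequences were called. A further 38 carriers were not called, and 17 of the 43 had an unadjusted p under 0.05 (39.5%, against 36.6% of all genes). The groups did not overlap for 18 carriers (41.9%, against 43.6% of all genes). Differences ran from -0.83 to 1.18 with a median of 0.11, beside a median of 0.05 over all genes, and 23 were positive and 20 negative. The carriers' median was 0.04 with median scaling, 0.04 with the slide row as a block and 0.21 with the mean of each gene's probes. The medians over all genes in those settings were -0.03, 0.03 and 0.06. For 39 carriers the measured difference was under 1.5-fold, and for 36 the 95% confidence interval stayed within 2-fold either way. The median within-group SD was 0.186 for the carriers and 0.130 for all genes. Of the 20 carriers with several tested probes, 14 had all probes on the same side of 0 and 6 had a probe on the opposite side.

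**Figure D1:**
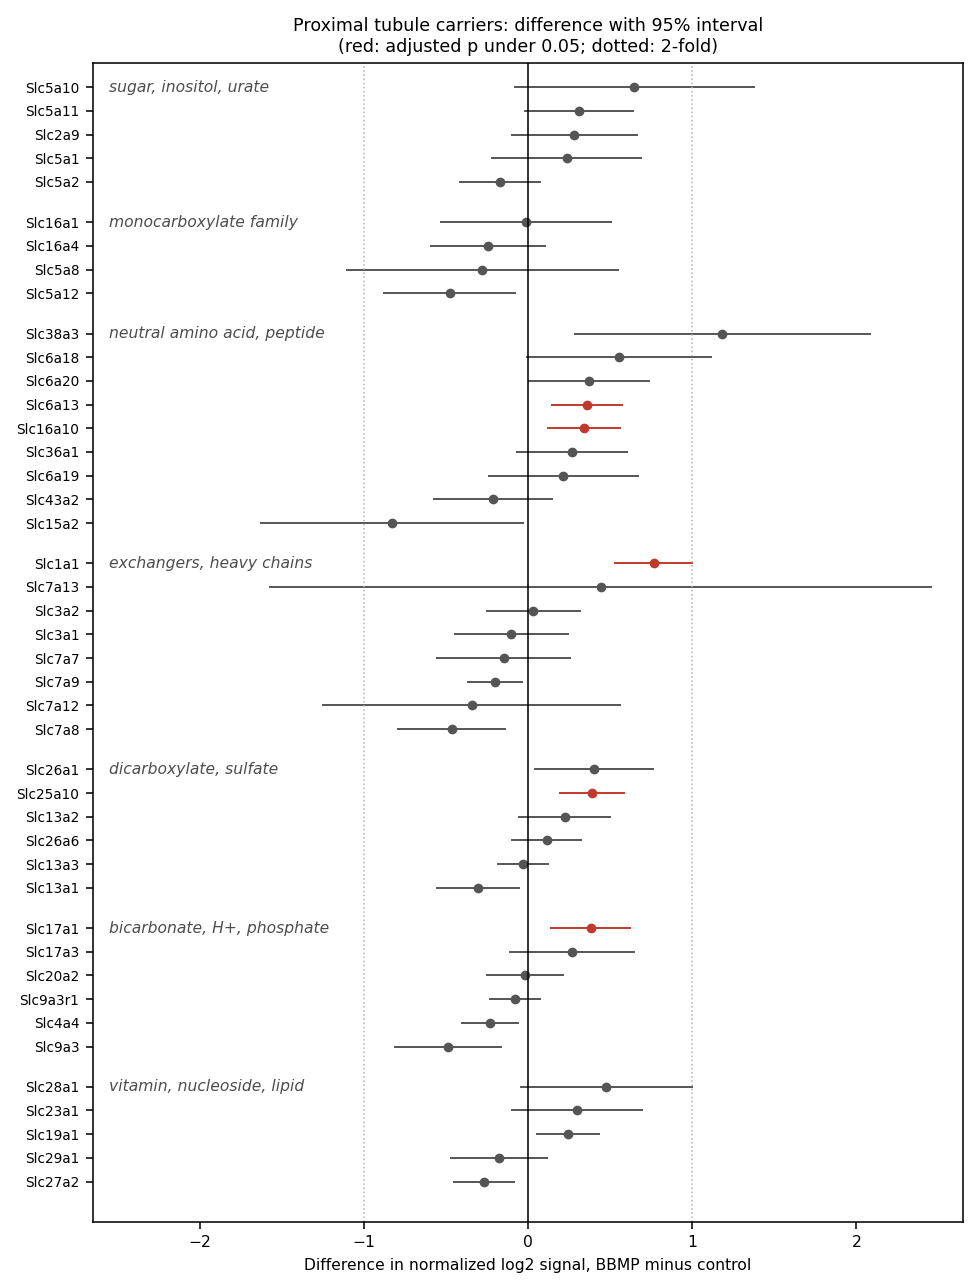
The difference in normalized log2 signal (BBMP minus control, horizontal axis) of each of the 43 tested carriers, grouped by role, with its 95% confidence interval as a bar (n = 3 rats per group). Red marks the 5 called higher, which lie between 0.34 and 0.76, dotted lines mark 2-fold, and the interval of Slc7a13 is the widest, from -1.57 to 2.46.

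Fewer carriers were called when any 1 rat was left out, and the calls also depended on the scaling. A fit without 1 rat has fewer rats in that group. Reliance on a particular array and lower precision therefore cannot be told apart in the lost calls. Over these fits the difference was 0.69 to 0.82 for Slc1a1 and 0.34 to 0.44 for Slc25a10. With the second BBMP rat left out, 0 of 43 carriers and 3 of all genes or sequences were called, and 14 carriers kept an unadjusted p under 0.05. Without control replicate 1 or 2, or BBMP replicate 1 or 3, 1 carrier was called, Slc1a1, and without control replicate 3 there were 3 (Slc1a1, Slc25a10 and Slc16a10). When arrays were centred on their median instead of the 75th percentile, 2 carriers were called higher (Slc1a1 and Slc25a10) and 5 lower (Slc7a8, Slc7a9, Slc4a4, Slc9a3 and Slc27a2), and 35.9% of all calls were higher, against 57.1% with the 75th percentile. The row of the slide also differed between groups, since 2 control arrays lay in row 2 and every BBMP array in row 1. With the row as a block, 0 carriers were called and 12 had an unadjusted p under 0.05. Only 1 control array then meets the BBMP arrays in row 1, where 0 carriers were called as well.

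The largest called difference was that of Slc1a1, which encodes the sodium-coupled carrier of glutamate and aspartate in the brush border. Its probe (A_64_P112994) read 2.63, 2.46 and 2.73 in the control rats and 3.26, 3.42 and 3.44 in the BBMP rats. Every BBMP rat lay well above every control rat. The mean rose from 2.61 ± 0.13 to 3.37 ± 0.10 (SD, n = 3 each), a difference of 0.76 (SE 0.10, 95% interval 0.53 to 1.00) or 1.70-fold, with limma's adjusted p = 0.0128. Slc1a1 was called in 16 of 20 alternative settings. It was not called with the slide row as a block (0.65, adjusted p = 0.100), in slide row 1 alone (adjusted p = 0.131), without the second BBMP rat (adjusted p = 0.0540) or with the replicate block (adjusted p = 0.0752).

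Slc25a10, the dicarboxylate carrier of the inner mitochondrial membrane, read 4.86, 4.96 and 5.06 in controls and 5.41, 5.27 and 5.37 in BBMP rats. The groups did not overlap, and Slc25a10 rose by 0.39 (SE 0.08, 1.31-fold, limma's adjusted p = 0.0281). It stayed called under median scaling (0.31, adjusted p = 0.0423) and was not called with the slide row as a block (0.29, adjusted p = 0.195) or without the second BBMP rat (adjusted p = 0.0655).

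Slc6a13, a sodium- and chloride-coupled carrier of GABA and taurine, read 1.96, 1.97 and 2.07 in controls and 2.21, 2.46 and 2.40 in BBMP rats. It rose by 0.36 (SE 0.09, 1.28-fold, limma's adjusted p = 0.0409), with no overlap between groups. Slc17a1, an organic anion and urate carrier of the brush border that is also known as a sodium phosphate carrier, read 1.76, 1.88 and 1.83 in controls and 2.06, 2.17 and 2.38 in BBMP rats. Slc17a1 rose by 0.38 (SE 0.10, 1.30-fold, adjusted p = 0.048), again with every BBMP rat above every control. Slc16a10, which carries aromatic amino acids across the basolateral membrane, read -0.06, -0.15 and 0.13 in controls and 0.27, 0.32 and 0.36 in BBMP rats. Its rise of 0.34 (SE 0.09, 1.27-fold, adjusted p = 0.049) lay just under the threshold. None of Slc6a13, Slc17a1 and Slc16a10 was called under median scaling (adjusted p = 0.0811, 0.0803 and 0.0922) or with the slide row as a block (adjusted p = 0.252, 0.226 and 0.292), and without the second BBMP rat their adjusted p-values were 0.111, 0.111 and 0.123. With the slide row as a block the Slc16a10 difference was 0.18. With no filter on dim probes none of the 3 was called (adjusted p = 0.0580, 0.0629 and 0.0646), nor was Slc17a1 after normexp background correction (0.26, adjusted p = 0.072).

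**Figure D2:**
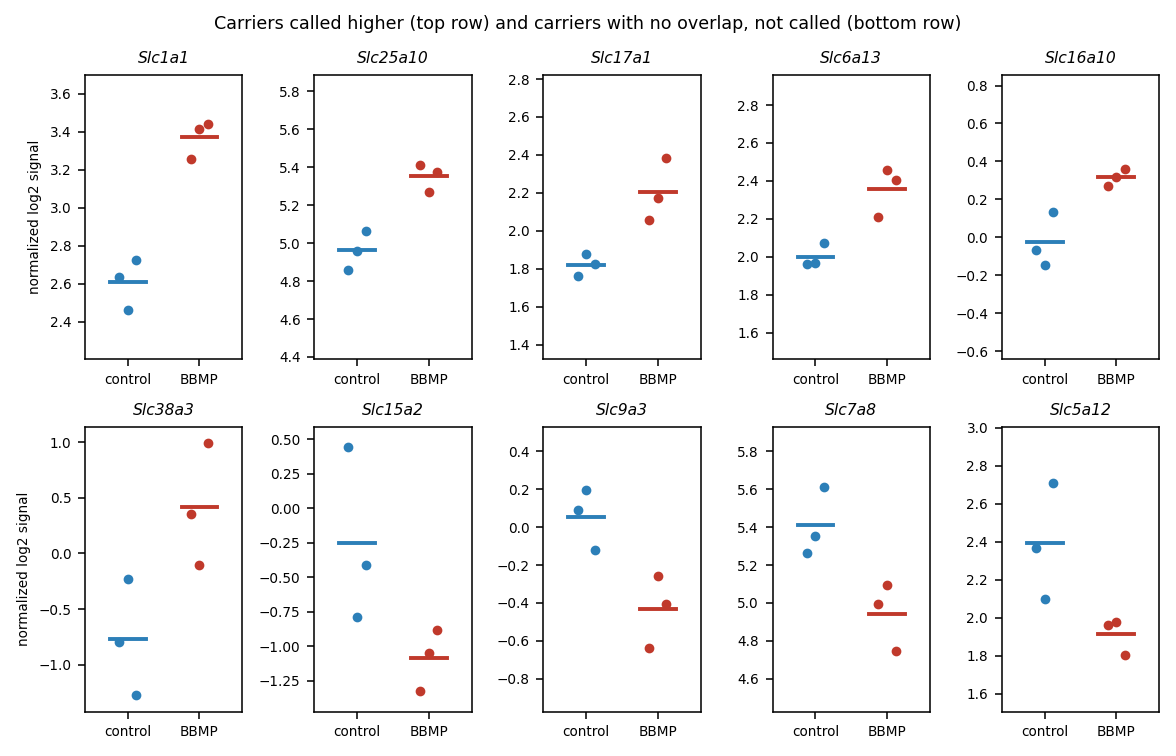
Normalized log2 signal (vertical axes, relative to the 75th percentile of each array) of 10 carriers in each of 3 control (blue) and 3 BBMP (red) rats, with the group mean as a line. The top row holds the carriers called higher, such as Slc1a1 at 2.61 and 3.37, and the bottom row holds 5 that were not called although the groups did not overlap, among them Slc38a3, whose 3 rats per group were spread the most of the 10.

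**Figure D3:**
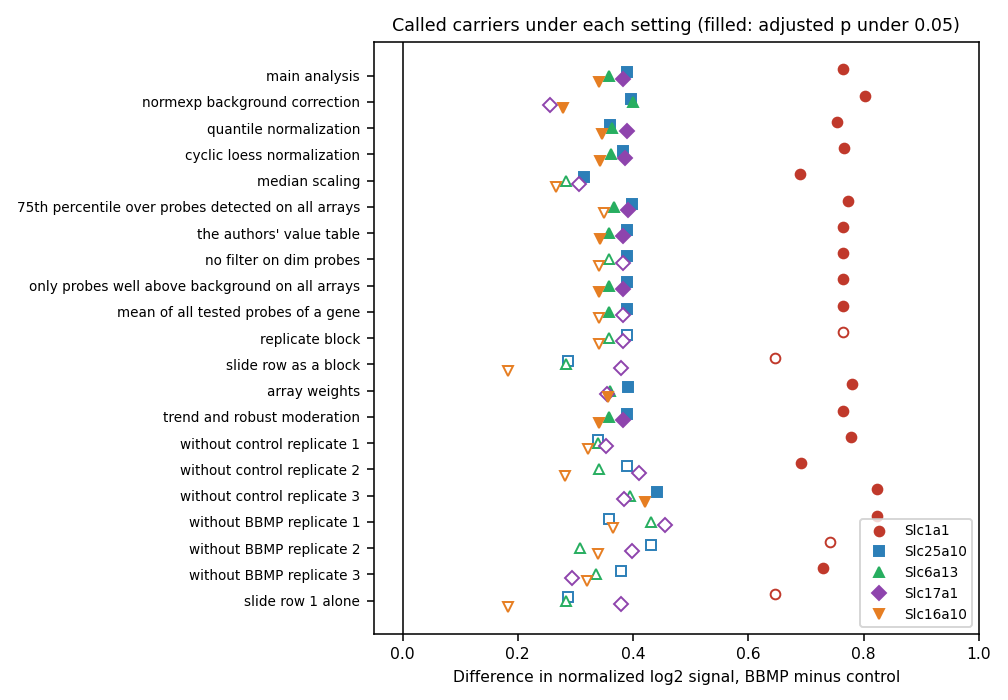
The difference (BBMP minus control, normalized log2 signal, horizontal axis) of the 5 called carriers under each processing setting (vertical axis), with filled symbols where the adjusted p was under 0.05. All differences were positive, Slc1a1 (red circles) stood apart from the other 4, and 0 symbols are filled for the replicate block, the slide row as a block, slide row 1 alone and the fit without the second BBMP rat.

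None of the 5 sugar, inositol and urate carriers was called, and their median difference was 0.28. Slc5a2, the sodium-glucose carrier of the early proximal tubule and the target of gliflozin drugs, read 7.38, 7.62 and 7.69 in controls and 7.42, 7.45 and 7.30 in BBMP rats. The groups overlapped, and the difference of -0.17 had a 95% interval of -0.42 to 0.07 (limma's adjusted p = 0.261). Other probes of Slc5a2 differed by -0.27 and 0.12, so its direction depended on the probe. Slc5a1, the high-affinity sodium-glucose carrier of the late proximal tubule, read -1.34, -1.82 and -1.30 in controls and -1.51, -1.16 and -1.08 in BBMP rats (difference 0.24, interval -0.22 to 0.69, adjusted p = 0.397). A second, dimmer probe of Slc5a1 differed by 0.75 (adjusted p over all probes 0.020), so the probes of this gene disagree on the call.

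Slc5a10, a carrier of fructose and mannose, had the largest difference among the sugar carriers and a wide spread among controls. It read 2.94, 2.25 and 1.81 in controls and 2.77, 3.00 and 3.17 in BBMP rats, where the first control rat lay inside the BBMP range. The difference of 0.65 (1.57-fold, interval -0.08 to 1.37) was not called, with limma's adjusted p = 0.173. Slc5a11, which carries myo-inositol, read 2.52, 2.48 and 2.80 against 2.73, 2.89 and 3.11 (difference 0.31, adjusted p = 0.154). Slc2a9, a urate carrier of the glucose carrier family, read 1.77, 1.89 and 1.79 against 2.05, 2.42 and 1.82 (difference 0.28, interval -0.10 to 0.66, adjusted p = 0.243). In both genes at least 1 BBMP rat lay within the range of the controls.

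The 4 tested monocarboxylate carriers all had negative differences, with a median of -0.26, and none was called. Slc5a12, a low-affinity sodium-coupled lactate carrier of the brush border, read 2.37, 2.10 and 2.71 in controls and 1.96, 1.98 and 1.80 in BBMP rats. All BBMP rats lay below all controls, and the difference was -0.48 (1.39-fold lower, interval -0.88 to -0.08, limma's adjusted p = 0.0918). Slc5a8, the high-affinity sodium-coupled carrier of lactate and short-chain fatty acids, read 1.06, 1.61 and 1.096 against 0.31, 1.08 and 1.54 (difference -0.28, adjusted p = 0.586), with wide overlap. Slc16a4, a member of the monocarboxylate carrier family, read 3.52, 3.36 and 3.04 against 2.91, 3.14 and 3.14 (difference -0.24, adjusted p = 0.262). Slc16a1, the proton-coupled lactate and pyruvate carrier, differed by -0.01 (adjusted p = 0.971).

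Of the 9 tested carriers of neutral amino acids and peptides, 2 were called higher, Slc6a13 and Slc16a10, and 7 of the 9 differences were positive, with a median of 0.34. Slc38a3, which moves glutamine and is known for its role in renal ammonia production, had the largest difference of all carriers, and its rats were widely spread. It read -0.80, -0.23 and -1.27 in controls and 0.36, -0.10 and 0.99 in BBMP rats. The groups did not overlap, though the highest control and the lowest BBMP rat lay close together. The difference of 1.18 (2.27-fold, interval 0.29 to 2.08) was not called, with limma's adjusted p = 0.074, and it was called after normexp background correction (1.12, adjusted p = 0.0468).

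Slc15a2, the high-affinity proton-coupled peptide carrier, had the most negative difference of all carriers. It read 0.44, -0.79 and -0.41 in controls and -1.32, -1.05 and -0.88 in BBMP rats, so that the highest BBMP rat lay just below the lowest control. The difference of -0.83 (1.78-fold lower, interval -1.63 to -0.03) was not called (limma's adjusted p = 0.126), and without control replicate 1, the highest rat for Slc15a2, it was -0.48 (adjusted p = 0.155). Slc6a18, a brush-border carrier of glycine and other neutral amino acids, read 4.44, 4.34 and 3.67 in controls and 4.54, 4.66 and 4.92 in BBMP rats. Its difference of 0.55 (1.47-fold) was not called (adjusted p = 0.139), although every BBMP rat lay above every control.

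Slc6a19, the main sodium-coupled neutral amino acid carrier of the brush border and the gene of Hartnup disorder in humans, read 3.29, 3.37 and 3.92 in controls and 3.64, 3.70 and 3.88 in BBMP rats. The third control was above all BBMP rats, and the difference of 0.21 had an interval of -0.24 to 0.67 (limma's adjusted p = 0.441). The proline carrier Slc6a20 (current symbol Slc6a20a) differed by 0.37 with no overlap (adjusted p = 0.132). The proton-coupled carrier Slc36a1 differed by 0.27 (adjusted p = 0.210). Slc43a2, a basolateral carrier of branched-chain amino acids, differed by -0.21 (adjusted p = 0.337). Other probes of Slc43a2 differed by 0.73 (adjusted p over all probes 0.040) and 0.23, so its direction depended on the probe.

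Among the 8 exchangers, anionic carriers and heavy chains, Slc1a1 was called higher, 5 of 8 differences were negative and the median was -0.13. Slc3a1 and Slc7a9 encode the heavy and the light chain of the brush-border exchanger for cystine and dibasic amino acids, and mutations of either cause cystinuria in humans. Slc3a1 read 8.13, 7.85 and 7.71 in controls and 7.62, 7.95 and 7.82 in BBMP rats, with groups that overlapped (difference -0.10, interval -0.45 to 0.24, limma's adjusted p = 0.638). A second probe of Slc3a1 differed by 0.05, in the other direction. Slc7a9 read 5.54, 5.63 and 5.64 in controls and 5.38, 5.49 and 5.35 in BBMP rats. All BBMP rats were below all controls for Slc7a9, and the difference of -0.20 (1.15-fold lower, interval -0.36 to -0.03) was not called, with adjusted p = 0.0913.

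On the basolateral side, the heavy chain Slc3a2 pairs with Slc7a7, which exchanges cationic for neutral amino acids, and with Slc7a8, which exchanges neutral amino acids. Slc3a2 read 4.36, 4.36 and 4.69 against 4.54, 4.57 and 4.38 (difference 0.03, interval -0.25 to 0.31, limma's adjusted p = 0.87). Slc7a7 read 2.61, 2.64 and 2.96 against 2.69, 2.78 and 2.29 (difference -0.15, interval -0.55 to 0.26, adjusted p = 0.551). In these 2 genes the groups overlapped. Slc7a8 read 5.26, 5.35 and 5.61 in controls and 4.996, 5.09 and 4.74 in BBMP rats, with no overlap. Its difference of -0.46 (1.38-fold lower, interval -0.79 to -0.14) was not called (adjusted p = 0.0619), a second probe of Slc7a8 differed by -0.44, and Slc7a8 was called lower under median scaling (-0.54, adjusted p = 0.045).

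Slc7a13, which transports aspartate, glutamate and cystine and pairs with Slc3a1, varied most within groups. It read 5.95, 3.85 and 3.05 in controls and 3.83, 5.40 and 4.94 in BBMP rats. Its means of 4.28 ± 1.501 and 4.72 ± 0.81 (SD, n = 3 each) differed by 0.44 with an interval of -1.57 to 2.46 (limma's adjusted p = 0.729). The pooled within-group SD of 1.21 lay at the 99.4th percentile of all genes, so 3 rats per group left the difference of this gene poorly determined in size and direction. Slc7a12, a light chain that carries small neutral amino acids in the mouse, read 0.47, -0.74 and -0.62 against -0.82, -0.22 and -0.88 (difference -0.34, adjusted p = 0.538), and its within-group SD of 0.537 was at the 95.4th percentile.

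**Figure D4:**
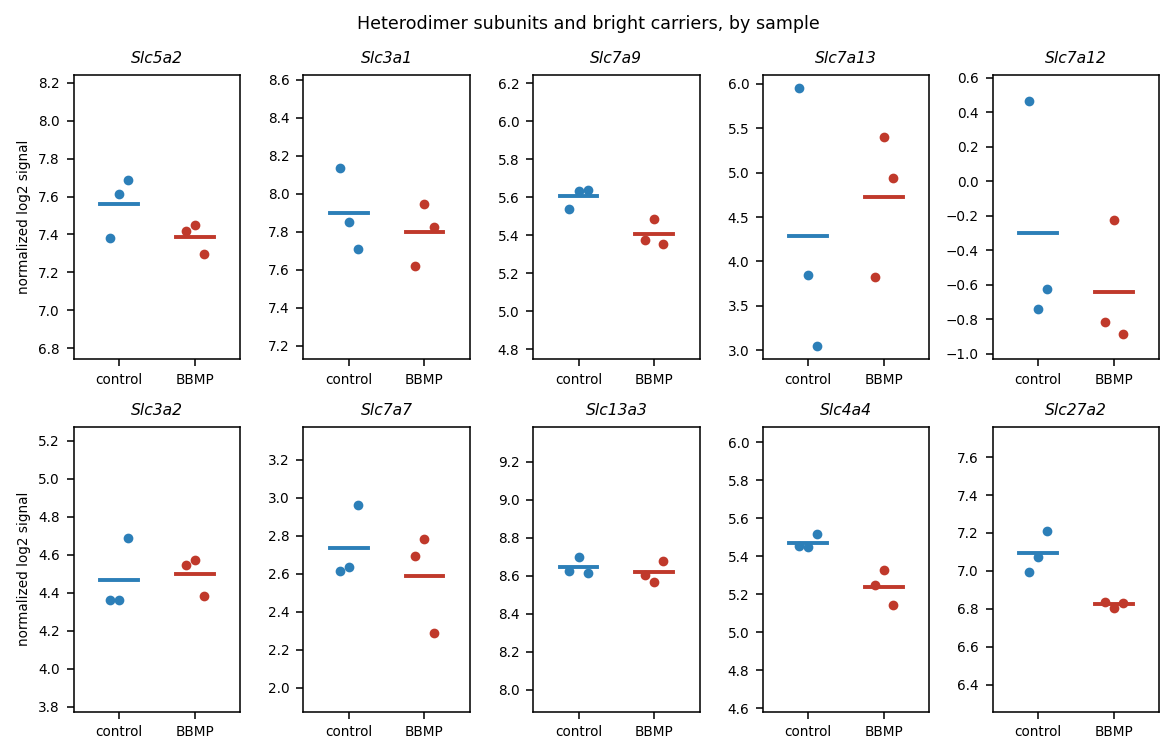
Normalized log2 signal (vertical axes, relative to the 75th percentile of each array) of 10 carriers in each of 3 control (blue) and 3 BBMP (red) rats, with the group mean as a line. The exchanger chains Slc3a1, Slc3a2, Slc7a7, Slc7a9, Slc7a12 and Slc7a13 are shown with Slc5a2, Slc13a3, Slc4a4 and Slc27a2. None was called, and control rats spread from 3.05 to 5.95 for Slc7a13 but only from 8.62 to 8.70 for Slc13a3.

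Of the 6 carriers of dicarboxylates, citrate and sulfate, Slc25a10 was called higher, 4 differences were positive and the median was 0.17. Slc13a1, the sodium-sulfate carrier of the brush border, read 4.42, 4.50 and 4.33 in controls and 4.06, 4.29 and 3.98 in BBMP rats. The groups did not overlap, and the difference was -0.31 (1.24-fold lower, interval -0.55 to -0.06, limma's adjusted p = 0.0865). Of its other probes, 1 differed by -0.69 (adjusted p over all probes 0.011) and 1 by 0.36, so the probes of Slc13a1 disagree. Slc26a1, the basolateral sulfate and oxalate exchanger, read 5.85, 6.18 and 6.23 in controls and 6.38, 6.38 and 6.72 in BBMP rats. Every BBMP rat was above every control for Slc26a1, with a difference of 0.40 (1.32-fold, interval 0.04 to 0.76) that was not called (adjusted p = 0.108).

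Slc13a3, the basolateral sodium-dicarboxylate carrier that supplies the counter-ion for organic anion uptake, read 8.63, 8.70 and 8.62 in controls and 8.61, 8.57 and 8.68 in BBMP rats. The difference of -0.03 had the narrowest interval of the 43 carriers, -0.18 to 0.12 (limma's adjusted p = 0.747). Slc13a2, which takes up citrate at the brush border, differed by 0.22 (adjusted p = 0.208), and Slc26a6, an exchanger of chloride, oxalate and bicarbonate, by 0.11 (adjusted p = 0.382).

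In the group of bicarbonate, proton and phosphate carriers with their scaffold, Slc17a1 was called higher and the other 5 of 6 were not called; the median difference was -0.05. Slc9a3, the sodium-proton exchanger of the brush border, read 0.09, 0.20 and -0.12 in controls and -0.64, -0.26 and -0.41 in BBMP rats. All BBMP rats lay below all controls, and the difference of -0.49 (1.40-fold lower, interval -0.81 to -0.17) had limma's adjusted p = 0.0534, just above the threshold. A second probe of Slc9a3 differed by 0.50 in the other direction (adjusted p over all probes 0.040), and another by -0.23. Slc4a4, the sodium-bicarbonate cotransporter of the basolateral membrane, read 5.45, 5.45 and 5.52 in controls and 5.25, 5.33 and 5.15 in BBMP rats. The groups did not overlap, the difference was -0.23 (1.17-fold lower, interval -0.40 to -0.06, adjusted p = 0.070), and the other probes of Slc4a4 differed by -0.27 and -0.21.

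Slc9a3r1, the scaffold (current symbol Nherf1) that anchors phosphate and proton carriers at the brush border, read 2.30, 2.32 and 2.39 against 2.21, 2.32 and 2.24 (difference -0.08, interval -0.23 to 0.07, limma's adjusted p = 0.397). Slc17a3, an organic anion carrier related to Slc17a1, read 4.23, 4.18 and 3.79 against 4.22, 4.23 and 4.54, groups that overlapped (difference 0.27, adjusted p = 0.262). Slc20a2, a sodium-phosphate carrier, differed by -0.02 (adjusted p = 0.897). The 3 other, dimmer probes of Slc20a2 differed by 0.13, 0.14 and 0.14, in the other direction.

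None of the 5 carriers of vitamins, nucleosides and fatty acids was called, and the median difference was 0.24. Slc27a2, which takes up long-chain fatty acids and activates very long ones, read 6.99, 7.07 and 7.21 in controls and 6.84, 6.81 and 6.83 in BBMP rats. The BBMP rats lay close together below all controls, and the difference of -0.27 (1.20-fold lower, interval -0.45 to -0.09) was not called (limma's adjusted p = 0.0576); Slc27a2 was called lower with median scaling. Slc19a1, the reduced folate carrier, read 3.45, 3.53 and 3.68 in controls and 3.76, 3.79 and 3.83 in BBMP rats, with no overlap (difference 0.24, 1.18-fold, interval 0.05 to 0.43, adjusted p = 0.0791).

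Slc28a1, a sodium-coupled nucleoside carrier, read 0.92, 1.55 and 1.27 against 1.56, 1.54 and 2.06 (difference 0.48, 1.39-fold, limma's adjusted p = 0.164), where 1 control lay within the BBMP range. Slc23a1, the sodium-coupled vitamin C carrier, read 1.62, 1.41 and 1.03 against 1.53, 1.72 and 1.70 (difference 0.30, interval -0.10 to 0.69, adjusted p = 0.232), also with overlap. Slc29a1, an equilibrative nucleoside carrier, differed by -0.17 (adjusted p = 0.335).

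A second list held 46 other proximal tubule carriers, scaffolds, regulators, pump subunits and carbonic anhydrases. Of these, 39 were tested, 4 were called higher and 4 lower (20.5%, beside 17.9% of all genes), with a median difference of -0.02. Slc16a7, a monocarboxylate carrier with high affinity for pyruvate, read 1.70, 1.70 and 1.74 in controls and 1.22, 1.101 and 1.06 in BBMP rats. Slc16a7 fell by 0.58 (SE 0.06, limma's adjusted p = 0.0116), with the groups far apart relative to their spread. Slc2a1, the facilitative glucose carrier GLUT1, fell by 0.46 (1.37-fold, adjusted p = 0.0194). Slc6a6, the taurine carrier, fell by 0.52 (1.43-fold, adjusted p = 0.0274) at its brightest probe, and with the mean of its tested probes Slc6a6 differed by -0.15 and was not called (adjusted p = 0.382).

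Car2, the cytosolic carbonic anhydrase that supplies protons and bicarbonate, read 4.83, 4.76 and 4.97 in controls and 4.39, 4.47 and 4.42 in BBMP rats, and fell by 0.43 (1.347-fold lower, limma's adjusted p = 0.0205). Car2 is also known from intercalated cells. Of their 5 markers, 0 were called, 3 had a negative and 2 a positive difference, and the median was -0.19. Their summed signal was 138 to 171 in controls and 124 to 137 in BBMP rats. The part of these cells in the Car2 value was not tested. Slc25a1, the mitochondrial citrate carrier, read 1.91, 1.98 and 1.89 in controls and 2.15, 2.26 and 2.25 in BBMP rats. Slc25a1 rose by 0.29 (1.22-fold, adjusted p = 0.0311), like Slc25a10 of the same mitochondrial family. Unlike Slc25a10, Slc25a1 was not called under median scaling (0.21, limma's adjusted p = 0.0694), and it was called in 0 of 6 fits that left out 1 rat. The mitochondrial oxoglutarate carrier Slc25a11 and the organic anion carrier Slc17a2 were called higher too, and both are named after their values were seen. Slc34a1, the main sodium-phosphate carrier of the brush border, read 8.45, 8.50 and 8.46 against 8.46, 8.40 and 8.50 (difference -0.02, interval -0.16 to 0.12, adjusted p = 0.84). Pdzk1, a brush-border scaffold, was not called (difference -0.03, adjusted p = 0.817).

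Hnf4a encodes a transcription factor that drives proximal tubule genes, and Cltrn encodes collectrin, which brings Slc6a19 to the brush border in mice. Hnf4a read 0.28, 0.22 and 0.39 in controls and 0.89, 0.77 and 0.66 in BBMP rats, and rose by 0.48 (1.39-fold, limma's adjusted p = 0.0216), with no overlap. Cltrn read 7.67, 7.60 and 7.65 against 7.36, 7.47 and 7.52, a difference of -0.19 that was not called (adjusted p = 0.0999) although the groups did not overlap. Cltrn was called lower after normexp background correction (-0.33, limma's adjusted p = 0.012) and with the mean of its tested probes (-0.30, adjusted p = 0.035). With trend and robust moderation Cltrn was called lower too (adjusted p = 0.039). With the slide row as a block or without the second BBMP rat, none of the partner genes was called.

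The promoter of Slc3a1 is printed because it holds a short match to the site of HNF4, the factor that Hnf4a encodes, and shows the sequence around it. A promoter is the RefSeq sequence on GRCr8 from 250 bases before to 50 after the gene's start, and 37 of the 45 carriers had at least 1. For HNF4, CAAAGTC as a core and the longer CAAAGTCCA, which contains that core, were searched on both strands. Capitals mark the match to the longer motif, which lies on the strand opposite to the gene and begins at -89 from the start. The promoter (chr6:15394700-15394999, minus strand) is given 5′ to 3′ on the strand of the gene.
Slc3a1: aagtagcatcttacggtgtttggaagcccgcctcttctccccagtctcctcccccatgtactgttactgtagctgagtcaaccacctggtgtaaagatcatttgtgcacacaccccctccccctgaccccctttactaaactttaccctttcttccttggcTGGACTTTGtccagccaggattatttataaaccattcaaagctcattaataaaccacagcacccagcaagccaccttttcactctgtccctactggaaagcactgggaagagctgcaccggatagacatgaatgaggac

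CAAAGTC occurred in 2 of 38 carrier promoters (5.26%) and in 4.61% of all 33469 promoters, and CAAAGTCCA in 1 (2.63%) and 0.391%. Slc23a1 held the other match to CAAAGTC, and 0 of the 3 called carriers with a promoter held one. Neither carrier with a match was called: their differences were -0.10 for Slc3a1 and 0.30 for Slc23a1.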

How the data were processed

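RNA labelled with Cy3 was, per the labels' protocols, hybridised to 1-colour Agilent arrays, and per the submitters' processing notes the arrays were read with Agilent Feature Extraction 10.7. Linear spot intensity was deposited per array: per the file headers, the background-corrected processed signal, the median signal and its local background. The deposited flags are a score of 0 or 1 for spots well above background, saturated or outlying. The authors' deposited table holds a ratio per probe; each column equalled the processed signal of 1 scanner file of the same group over that array's 75th percentile, uncentred, with medians of 0.107 to 0.114. That file was another sample's than the column's label says, in each of the groups; which replicate number is right is unknown, and group membership does not depend on it.

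The log2 of the deposited processed signal was centred on each array's 75th percentile, taken over 61563 probes, after 84 ERCC spikes and 10 outlier spots were left out. Names came from RefSeq accessions through a GRCr8 table (27452 probes). A probe was tested if well above background on all 3 arrays of a group, and the brightest probe stood for a gene. The test was limma 3.58.1's lmFit and eBayes (R 4.3.3, no covariates, two-sided), with p-values adjusted over all 31582 genes or sequences; the code was tested on simulated data. Precision is limited by the number of arrays. The normexp alternative used the median signal, since the files hold no mean signal. Values per rat are given for called carriers, the 3 largest differences per role and 18 well-known carriers. The carriers, lists and tests were chosen with earlier results of these data known. Per the design text, the 3 rats of a group are biological replicates. Alternatives were other background, scaling, filter, probe, block and weight settings and leaving out each rat; slide row 1 alone was added after seeing the data. Some items of the second gene list and of the promoter search are not reported here.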

Additional observations from a re-analysis of the deposited data

How the results depend on the processing

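Slide and treatment cannot be told apart, and 3 rats per group limit the precision. The labels name no pairing of rats by replicate number. Deviations of same-numbered rats correlated at -0.116, -0.082 and -0.068, and those of differently numbered rats at -0.050 to 0.123. With 3 rats per group, and replicate numbers that are uncertain, these values cannot settle whether rats were paired. With the replicate number as a replicate block, 0 carriers, partner genes or other genes were called in either direction (limma; unadjusted p under 0.05 in 13 carriers and 9943 genes). The slide row as a block and slide row 1 alone also gave 0 calls in each (unadjusted p under 0.05 in 12 and 11 carriers, and in 7288 and 7178 genes). Leaving out 1 rat gave 0 to 3 carriers higher and 0 lower, 3 to 2431 genes higher and 0 to 1571 lower, 0 to 1 partner genes higher and 0 to 3 lower, and a median carrier difference of 0.05 to 0.14. Carriers called lower numbered 2 after normexp, 2 after quantile normalization, 1 after cyclic loess, 5 with median scaling, 1 with probes well above background on all arrays, 2 with array weights and 6 with trend and robust moderation. Carriers called higher numbered 2 with median scaling, 2 with no filter on dim probes and 3 with the mean of probes, and partner genes called higher 1 with median scaling and 1 with no filter. Over all genes, 5109 were lower after normexp (a shift of the median difference from 0.05 to -0.06, with 36.4% of calls higher), 2102 higher and 3749 lower with median scaling, and 2102 higher with no filter. Of calls over all genes, 46.6% were higher after cyclic loess. Of 1080 single-gene values under alternatives, 926 kept their direction and their side of the threshold, 95 lost a call, 26 gained one and 33 changed sign, none of them called. The cause was not tested. With the slide row as a block or row 1 alone, the difference was 0.0199 for Slc16a4, -0.18 for Slc6a19, 0.0888 for Slc3a1, -0.19 for Slc3a2 and 0.00027 for Slc13a3. After normexp it was 0.10 for Slc13a3, 0.0908 for Slc20a2 and 0.0154 for Slc34a1, with the mean of probes 0.25 for Slc43a2 and 0.10 for Slc20a2, with array weights 0.0577 for Slc16a1 and 0.0067 for Slc20a2, and with median scaling -0.0444 for Slc3a2. Leaving out 1 rat changed the sign of the difference (range over the left-out rats) for Slc5a8 (-0.558 to 0.055), Slc16a1 (-0.141 to 0.207), Slc7a7 (-0.245 to 0.00074), Slc7a12 (-0.564 to 0.040), Slc7a13 (-0.175 to 1.278), Slc3a1 (-0.197 to 0.017), Slc3a2 (-0.024 to 0.140), Slc20a2 (-0.083 to 0.063), Slc34a1 (-0.042 to 0.0075) and Pdzk1 (-0.076 to 0.033).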

Other observations

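Several genes, Slc7a13 and Slc3a1 among them, had the same order of rats within each group, an observation made after their values were seen. In controls, rat 1 was highest and rat 3 lowest for Slc7a13 (5.95, 3.85, 3.05) and for Slc3a1 (8.13, 7.85, 7.71). In BBMP rats, rat 2 was highest and rat 1 lowest for Slc7a13 (3.83, 5.40, 4.94) and for Slc3a1 (7.62, 7.95, 7.82). Slc22a2, an organic cation carrier of the basolateral membrane, had this order as well, with 4.74, 4.12 and 3.37 in controls and 3.63, 4.34 and 3.81 in BBMP rats. The order was not limited to carriers. Mme, a proximal tubule marker, read 2.90, 1.87 and 1.01 in controls and 1.71, 2.93 and 2.58 in BBMP rats, and Umod, a marker of the thick ascending limb, read 8.81, 8.44 and 7.85 and then 8.15, 8.68 and 8.58. Other carriers did not have it: Slc6a18 had the control order (4.44, 4.34, 3.67) but not the BBMP order (4.54, 4.66, 4.92). How many carriers or other genes had this order was not counted, and the genes named here were picked because they had it. No test was made.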
